A study of Mus musculus with 2 samples.

Results

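Cryab and 9 other heat shock genes were followed by gene symbol in scRNA-Seq counts of GL261, a mouse glioma cell line from C57BL/6 mice that is labelled astrocytoma. The 10 genes were Cryab, Hspb1, Hspb8, Hspa5, Hspa8, Hsp90aa1, Hsp90ab1, Hsph1, Dnajb1 and Hspa1b, out of 32285 genes counted, and each symbol named a single gene. The question was whether Cryab moved with the other heat shock genes, between the cultures and from cell to cell. Adherent cells were grown in DMEM with 10% FBS, and neurosphere cells were collected after 12 days with 20 ng/ml EGF, 20 ng/ml FGF and B-27. Per the labels both cultures were trypsinized, the neurospheres were also broken up by trituration, and both were frozen in DMSO before the libraries were made. The paper names trypsin for the adherent cells only, and describes the neurospheres as centrifuged and then triturated. Each culture is represented by 1 library, so no test between cultures was possible and no p-value is given. Intervals are 95% intervals that cover counting error only.

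Heat shock proteins are molecular chaperones, which bind unfolded proteins and keep them from aggregating or help them to fold. Small heat shock proteins such as αB-crystallin, the product of Cryab, hold unfolded proteins without using ATP, whereas HSP70, with its HSP40 and HSP110 partners, and HSP90 fold their clients in ATP-driven cycles. Under heat or proteotoxic stress, heat shock factor 1 binds heat shock elements in the promoters of many of these genes, while the chaperone of the endoplasmic reticulum, Hspa5, is induced through the unfolded protein response. Cryab is abundant in lens, heart and muscle, and is also known from astrocytes and gliomas.

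The libraries held 5051 adherent and 4276 neurosphere cells after filtering, with 46290996 and 64943938 unique molecular identifiers (UMIs), and a median of 8260 and 13198.5 UMIs per cell. The median mitochondrial share was 2.02% in adherent and 3.97% in neurosphere cells. Of the defining astrocyte markers, Aqp4 was at 0 UMIs in both libraries and Gfap had 30 and 27 UMIs, while Slc1a3 had 17148 and 5231 and S100b 7437 and 16535 UMIs. The 8 astrocyte markers summed to 567 CPM in adherent against 366 CPM in neurosphere cells. Among 8 immune markers, Tyrobp was at 0 and Ptprc had 1 UMI in adherent and 0 in neurosphere cells, and the 8 genes summed to 17.6 and 10.3 CPM (UMIs per 1000000 UMIs of the library). The 4 endothelial markers summed to 1.34 and 3.23 CPM, and the 8 lens and muscle markers to 6.37 and 2.05 CPM. The 4 fibroblast markers summed to 9.14 CPM in adherent against 392 CPM in neurosphere cells, and Col1a1, at 2.51 and 329 CPM, made up most of the neurosphere sum. The part of this difference in the results on heat shock genes was not tested. The libraries shared 12 cell barcodes.

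The promoter table, from RefSeq on GRCm38.p6, held 6 of the 10 genes (Hspb1, Hspb8, Hspa5, Hsph1, Dnajb1 and Hspa1b). Searched on both strands of the 250 bases before and 50 bases after the start, 4 of the 6 carried a heat shock element of at least 2 units (GAANNTTC or TTCNNGAA), which 15.1% of 27025 promoters held. Hsph1 was the only one of the 6 with 3 units in a row (GAANNTTCNNGAA, which contains the 2-unit form), from base 37 to 49 after its start, against 0.529% of all promoters. Hspa5 alone carried the endoplasmic reticulum stress element (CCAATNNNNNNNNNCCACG), found in 0.130% of all promoters. Dnajb1 held neither kind of element in this window. The 250 bases before the start are shown for Hspb1 and Hspa1b, which had 0 UMIs in both libraries, and for Hspa5, whose element differs from theirs. Capitals mark the heat shock or stress elements, and each sequence reads 5′ to 3′ on the strand of its gene, from chr5:135887669-135887918 on the plus strand for Hspb1, chr17:34959239-34959488 on the minus strand for Hspa1b and chr2:34771840-34772089 on the plus strand for Hspa5.
Hspb1: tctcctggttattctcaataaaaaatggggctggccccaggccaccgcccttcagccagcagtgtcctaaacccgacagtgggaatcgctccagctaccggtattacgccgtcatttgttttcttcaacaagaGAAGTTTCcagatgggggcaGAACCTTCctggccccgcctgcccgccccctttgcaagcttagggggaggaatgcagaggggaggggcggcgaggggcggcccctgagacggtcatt
Hspa1b: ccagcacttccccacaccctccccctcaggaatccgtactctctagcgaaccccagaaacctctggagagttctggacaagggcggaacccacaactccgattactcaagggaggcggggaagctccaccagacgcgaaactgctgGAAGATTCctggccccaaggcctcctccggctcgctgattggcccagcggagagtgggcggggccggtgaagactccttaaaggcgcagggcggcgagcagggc
Hspa5: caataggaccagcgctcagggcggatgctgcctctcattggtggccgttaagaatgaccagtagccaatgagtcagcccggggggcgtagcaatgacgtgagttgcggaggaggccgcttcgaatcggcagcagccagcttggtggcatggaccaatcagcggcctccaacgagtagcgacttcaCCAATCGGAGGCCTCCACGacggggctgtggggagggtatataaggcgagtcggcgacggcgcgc

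Cryab was the member that differed most between the cultures. Its 137768 UMIs in adherent cells gave 2976 CPM (interval 2960.4 to 2992), and its 25195 UMIs in neurosphere cells gave 388 CPM (383 to 393). The level was 7.67-fold lower in neurosphere cells, and its log2 fold change was -2.94 (-2.96 to -2.92), which was at percentile 2.20 of the 14654 genes that had 50 or more UMIs in the libraries together. By rank within each library, Cryab went from place 26 to place 442. In GRCm38, Cryab lies on chr9:50751325-50756636 on the plus strand.

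The second small heat shock member, Hspb8, which acts with the co-chaperone Bag3 in selective autophagy, was also lower in neurosphere cells. It had 344 UMIs (7.43 CPM) in adherent and 97 UMIs (1.49 CPM) in neurosphere cells, and its log2 fold change was -2.31 (-2.66 to -1.99). Its UMIs fell in 5.76% of adherent and 2.06% of neurosphere cells, so its level per cell could not be followed at this depth. Hspb1, the classical small heat shock protein HSP27 (HSP25 in mouse), had 0 UMIs in each of the 5764 adherent and 4951 neurosphere cells called.

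Hspa1b, 1 of the stress-inducible HSP70 genes, was likewise at 0 UMIs in every called cell. Its near-identical copy Hspa1a had 1 UMI in adherent and 0 in neurosphere cells. In the kept cells, the floor of 3 counts stands for a share of 0.0594% of adherent and 0.0702% of neurosphere cells with a UMI, and the exact 95% upper limit of a share of 0 is 0.0730% and 0.0862%. Of the 32285 genes counted, 26.2% were at 0 UMIs in all called cells. Of the nearest protein-coding genes, Srrm3 and Ywhag, on either side of Hspb1, had 15 and 9251 UMIs in adherent and 3 and 6958 in neurosphere cells called. Neu1, on the side of Hspa1b away from Hspa1a, had 2272 and 6752 UMIs. In GENCODE transcripts, none of the 411 windows of 90 bases in the last 500 bases of Hspa1b occurred in another gene, and 29 of the 411 windows of Hspb1 (7.06%) occurred in a pseudogene. Why these genes were at 0 was not tested, so a count of 0 is not read here as absence of the transcript.

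The constitutive HSP70 gene Hspa8, which folds newly made proteins and uncoats clathrin vesicles, was the only measured member above 0. It went from 1427 CPM (1416 to 1438) in adherent to 1791 CPM (1781 to 1801) in neurosphere cells, and its log2 fold change was 0.33 (0.31 to 0.34). Since the median of all 14654 genes was 0.32, Hspa8 stood at percentile 50.2 of them. Of the 411 windows at its end, 79.8% also occurred in GENCODE pseudogenes, none of which was in the count table, so its counts are less certain than those of the other members. Hspa5, the HSP70 chaperone of the endoplasmic reticulum, had 687 CPM (680 to 695) in adherent against 596 CPM (590 to 602) in neurosphere cells, and its log2 fold change was -0.21 (-0.23 to -0.18). The sign of Hspa5 depended on the scaling, as it was 0.013 with mitochondrial and ribosomal genes in the total.

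The partners of HSP70 differed little. Hsph1, an HSP110 protein that exchanges the nucleotide of HSP70, had 75.7 CPM (73.2 to 78.3) and 62.7 CPM (60.8 to 64.6), a log2 fold change of -0.27 (-0.34 to -0.21). Dnajb1, the HSP40 protein that delivers clients to HSP70, had 68.8 CPM (66.4 to 71.2) and 57.1 CPM (55.3 to 59.0), also a log2 fold change of -0.27 (-0.34 to -0.20). Neither difference reached 2-fold.

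The cytosolic HSP90 paralogs, which mature kinases and steroid receptors, differed unequally. Hsp90aa1, the more inducible paralog, went from 2797 CPM (2782 to 2812) to 1073 CPM (1065 to 1081), 2.61-fold lower in neurosphere cells, and its log2 fold change was -1.38 (-1.40 to -1.37). Hsp90ab1, the constitutive paralog, went from 5969.7 CPM (5947 to 5992) to 4384 CPM (4368 to 4399.9), a log2 fold change of -0.45 (-0.453 to -0.438).

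In all, 8 of the 10 members had at least 50 UMIs and could be compared. Of these, 3 (Cryab, Hspb8 and Hsp90aa1) were over 2-fold lower in neurosphere cells, where 11.7% of all compared genes were, and 0 were over 2-fold higher, where 21.7% of all compared genes were. With TMM scaling, 2128 of the 14654 genes were over 2-fold lower and 2354 higher, against 1711 and 3181 here, and with mitochondrial and ribosomal genes in the total 1375 were lower and 4325 higher. The other 5 were within 2-fold. The median log2 fold change was -0.36 over the 8 members and 0.32 over all 14654 genes, and the share of Cryab in all UMIs of the 10 members was 21.2% in adherent and 4.64% in neurosphere cells.

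**Figure D1:**
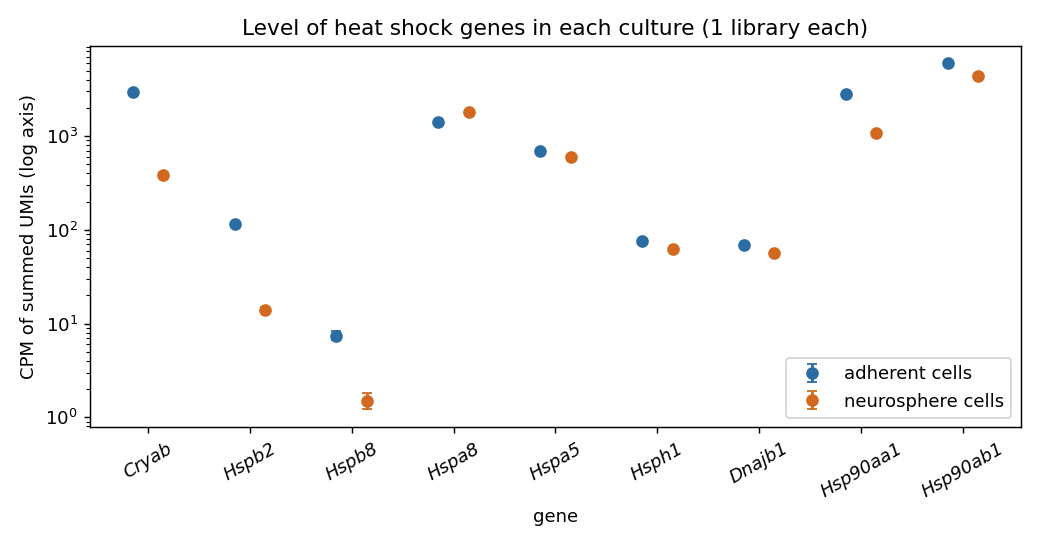
Level of 8 members and of Hspb2 in each culture, as CPM of summed UMIs on a log axis, with 1 point per library and bars for the 95% counting interval (mostly smaller than the points). Cryab, Hspb2, Hspb8 and Hsp90aa1 are the genes whose neurosphere point lies more than 2-fold below the adherent point, and Hspa8 is the only gene whose neurosphere point is higher.

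The gene next to Cryab behaved like it. Hspb2, a small heat shock gene of muscle, lies on chr9:50751078-50752354 on the minus strand and overlaps the Cryab gene on the opposite strand. It had 5315 UMIs (115 CPM) in adherent and 906 UMIs (14.0 CPM) in neurosphere cells, and its log2 fold change was -3.04 (-3.14 to -2.94). Of 411 windows of 90 bases at the end of Hspb2, 163 lay in a Cryab transcript read on the opposite strand (39.7%), whereas none at the end of Cryab lay in another gene. Whether reads were counted by strand is not given in the sources used here, and without strand such reads of Hspb2 and Cryab cannot be told apart.

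Across the wider chaperone families, most genes stayed within 2-fold, and the median log2 fold change was below 0 for the small heat shock, HSP90 (-0.33), chaperonin (-0.32) and co-chaperone (-0.12) lists and above 0 for the HSP70 and HSP40 (0.56) lists. The sign depended on the scaling for the co-chaperone list, at 0.098 with mitochondrial and ribosomal genes in the total, and for the HSP70 list, whose values are given with its members. Each count in the lists that follow is to be read against all compared genes, of which 21.7% were more than 2-fold higher and 11.7% were lower by as much. Of 6 small heat shock genes with at least 50 UMIs, 3 were over 2-fold lower (Cryab, Hspb2 and Hspb8) and 0 higher, with a median of -1.60 (-0.56 over the 8 genes with at least 10 UMIs), while Hspb6 (-0.25) and Hspb9 (-0.19) differed less. Of 12 HSP70 and HSP110 genes, 0 were over 2-fold lower and 1 was higher, Hspa12a, which went from 2.79 to 164 CPM (log2 fold change 5.87, 5.62 to 6.14), and the median was 0.043, against -0.17 with TMM scaling and 0.26 with mitochondrial and ribosomal genes in the total. Of 4 HSP90 genes, Hsp90aa1 alone was over 2-fold lower, and Hsp90b1, the paralog of the endoplasmic reticulum, had a log2 fold change of -0.21. Of 14 HSP40 genes, 4 were over 2-fold higher, among them Dnajb5 and Dnajb9, with log2 fold changes of 2.02 and 1.64, and 0 lower, and another of the 4, Dnajb11, lay at the 2-fold limit (1.00, 0.95 to 1.05). The 16 co-chaperones all stayed within 2-fold, from Cacybp (-0.71) to Bag2 (0.70). Of 10 chaperonin genes, the mitochondrial Hspe1 was over 2-fold lower, from 2890.3 to 1192 CPM (-1.28, -1.29 to -1.26).

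Hsf1, which encodes heat shock factor 1, had 34.3 CPM in adherent against 34.7 CPM in neurosphere cells, and its log2 fold change was 0.02 (-0.08 to 0.11). Of the other heat shock factors, Hsf2 was at 0.46 and Hsf4, at under 2 CPM in both cultures, at 3.02 (2.13 to 4.06). Of 20 genes of the endoplasmic reticulum stress list, 2 were over 2-fold higher, Dnajb9 and Dnajb11, and 1 was lower, Ddit3, which encodes the stress factor CHOP and went from 365 to 48.4 CPM (-2.92, -2.97 to -2.86). Of 14 genes that cell dissociation is known to induce, 5 were over 2-fold higher in neurosphere cells, led by Btg2 (2.53), and 3 were lower, led by Ier3 (-2.51). With TMM scaling 3 were higher and 3 lower, and with mitochondrial and ribosomal genes in the total 6 were higher and 1 lower. Of 9 intermediate filament genes, whose products include clients of αB-crystallin, 4 were over 2-fold lower, among them the muscle filament gene Des (-2.63) and Lmna (-1.90), and 3 were higher, led by Krt8, which went from 3.93 to 3025 CPM (9.59, 9.38 to 9.81). As only the neurospheres were triturated, and the sources differ on whether they were trypsinized, culture and dissociation cannot be told apart in the dissociation list.

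Per cell, Cryab was detected in nearly all adherent cells and was uneven in both cultures. To compare cells at equal depth, each cell was thinned at random to 5000 UMIs, which left 4464 adherent and 4196 neurosphere cells. Cryab was detected by 1 or more UMIs in 98.3% (97.8 to 98.6) of the adherent cells but 48.5% (47.0 to 50.02) of the neurosphere cells, against 98.7% and 68.9% without thinning. The median was 9 UMIs in adherent cells, with quartiles of 5 and 17 and a maximum of 375, and 0 UMIs in neurosphere cells, with quartiles of 0 and 2 and a maximum of 311. Some neurosphere cells thus held as much Cryab as the adherent cells, and the 2 distributions overlapped. At least 5 Cryab UMIs were held by 76.3% of the thinned adherent cells. Empty droplets, from which free RNA could be measured, were not analysed here, and no cell type that should lack Cryab was available. A single Cryab UMI in a cell of either culture is therefore not read as expression.

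The Cryab signal was spread unevenly over the cells. The tenth of cells highest in Cryab held 39.2% of its thinned UMIs in adherent and 64.4% in neurosphere cells. This share is also high for genes with few UMIs per cell. In adherent cells it was 49.2% for Dnajb1, 48.3% for Hsph1 and 41.9% for Hspb2, against 30.7% for Hspa5 and 20.6% for Hsp90aa1. In neurosphere cells it was 52.2% for Dnajb1, 54.9% for Hsph1, 29.1% for Hspa5 and 25.1% for Hsp90aa1. More than 50 UMIs were held by 173 adherent cells and by 9 neurosphere cells. The variance over the mean was 29.0 in adherent cells, the second highest of 934 genes with a mean of at least 1 UMI (median 1.19), and 32.9 in neurosphere cells, the second highest of 985 (median 1.31). Hspa5, Hspa8, Hsp90aa1 and Hsp90ab1 lay between 2.75 and 3.64 in adherent cells and between 2.30 and 3.64 in neurosphere cells. Hsp90aa1 had a median of 13 UMIs in adherent and 4 in neurosphere cells, and Hspa8 a median of 6 and 7. Without the 1% of cells highest in Cryab in each library, the log2 fold change was -3.40, a comparison added after seeing the data that removes cells by Cryab itself. The cells whose barcode was in both libraries held 0.127% of the neurosphere Cryab UMIs.

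**Figure D2:**
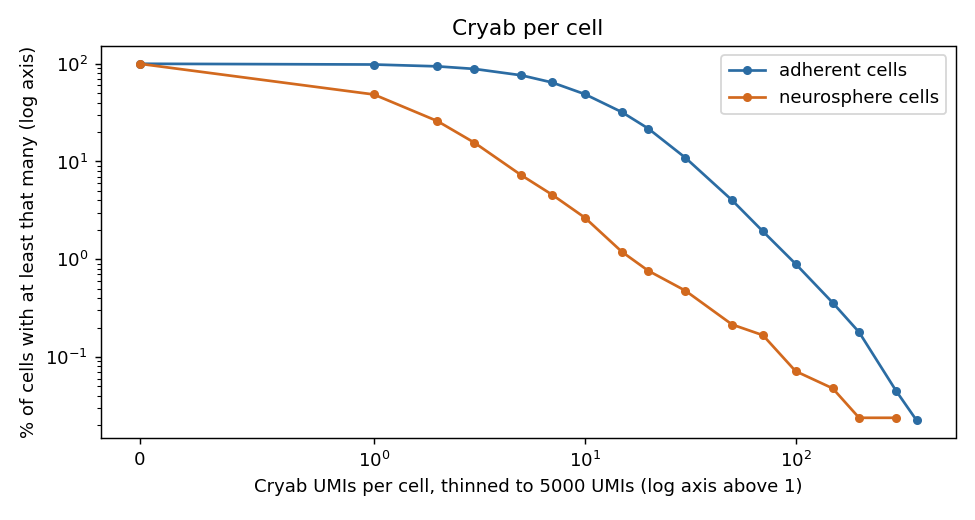
Cryab per cell at 5000 UMIs: the share of cells (y axis, log) with at least the number of Cryab UMIs on the x axis (log above 1), for 4464 adherent and 4196 neurosphere cells of 1 library each. Of the adherent cells 48.9% held at least 10 UMIs, and of the neurosphere cells 2.67%, and both curves reach beyond 300 UMIs.

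Within each culture, Cryab was then set against every gene with a UMI in at least 10% of thinned cells, by Spearman's rho across the cells of that library. The cells share a library, so rho is a description and carries no test. In 4464 adherent cells, 90% of 5709 genes had a rho between -0.057 and 0.042. Hsp90aa1 had 0.22 and was in place 4 of the 5709 genes, and Hspa8 had 0.11 and was in place 42. Hspa5 (0.067) and Dnajb1 (0.052) followed in places 115 and 189, Hsph1 had 0.017, and Hsp90ab1, at -0.078, was in place 5609, near the opposite end. The HSP90 paralogs thus lay on opposite sides with respect to Cryab, although their own rho was 0.21.

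In 4196 neurosphere cells, the relation of Cryab with the other members was close to 0 throughout. Among 6661 genes, Hsp90aa1 had 0.041 (place 449), Dnajb1 0.027, Hsp90ab1 0.018, Hsph1 -0.022, Hspa5 -0.035 and Hspa8 -0.048 (place 6035). The median over these 6 members was 0.060 in adherent and -0.0019 in neurosphere cells, beside medians of -0.0098 and -0.0085 over all genes compared. Hspb8 was too sparse to be ranked in either culture. Weak values such as these in sparse counts are not findings, and neurosphere cells held fewer Cryab UMIs per cell, which was not corrected for.

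Among the other members, the pair with the highest rho was Hspa8 and Hsp90aa1 in adherent cells and the HSP90 paralogs in neurosphere cells. Hsp90aa1 and Hspa8 had a rho of 0.29 in both cultures, Hsp90aa1 and Hsp90ab1 0.21 in adherent and 0.38 in neurosphere cells, and Hspa8 and Hsp90ab1 0.098 and 0.25. Hspb2, the small heat shock gene next to Cryab, had a rho with Cryab of 0.20 in adherent (place 6 of 5709) and 0.19 in neurosphere cells. The neurosphere value lay between 0.12 (3000 UMIs) and 0.28 (no thinning) under the alternatives. Small heat shock genes outside the members, such as Hspb6 and Hspb11, are not given here. Hspb2 itself had rho values between -0.080 and 0.030 with the other members in adherent cells, -0.0088 with Hsp90aa1 among them.

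**Figure D3:**
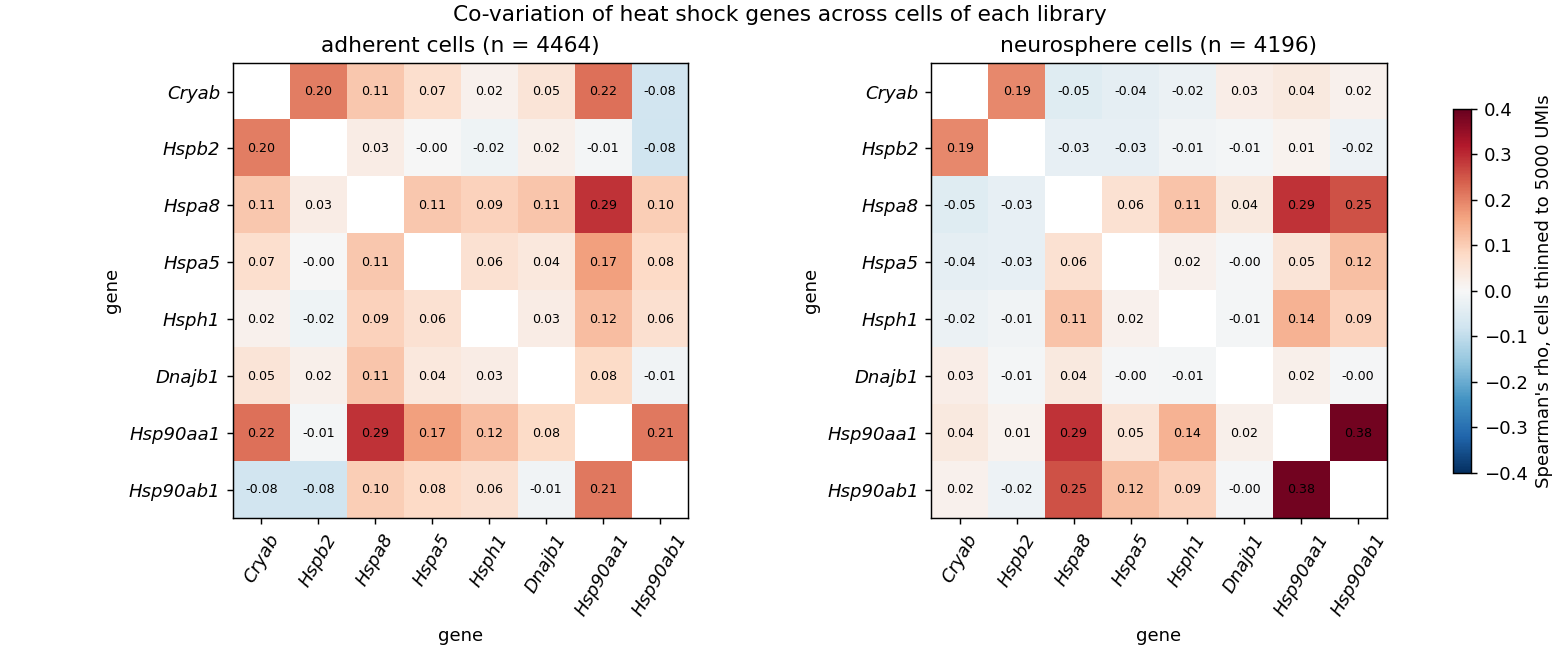
Spearman's rho between heat shock genes across thinned cells of each library (adherent left, neurosphere right), coloured from -0.4 (blue) to 0.4 (red), with the value in each square. In both panels the square of Cryab and Hspb2 is near 0.2, while the deepest red is the square of Hspa8 and Hsp90aa1 on the left and that of both HSP90 paralogs on the right. In the neurosphere panel the row of Cryab is pale for all but Hspb2.

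The genes most like Cryab were mostly not chaperones. In adherent cells the first 10 were S100a11 (0.27), Sat1 (0.22), S100a6 (0.22), Hsp90aa1, Anxa2 (0.21), Hspb2, Lgals3 (0.20), Lgals1 (0.20), Sparc (0.20) and Ccn1 (0.20), which include calcium-binding S100 proteins, an annexin and galectins. In neurosphere cells they were S100a6 (0.27), Syt4 (0.25), Lgals3 (0.25), Cpe (0.24), Lgals1 (0.24), Tagln2 (0.22), S100a10 (0.20), Emp3 (0.20), Tpm1 (0.20) and Matn2 (0.20). Of these, 3 were in both lists (Lgals1, Lgals3 and S100a6), and 28 of the first 100 genes were shared. The lowest in adherent cells were Slc1a3 (-0.19), Chl1 (-0.19), Nav3 (-0.18), Oxr1 (-0.15) and Anp32b (-0.15), and in neurosphere cells Col11a1 (-0.21), Rev3l (-0.19), Sncaip (-0.18), Ncam2 (-0.17) and Pcdh10 (-0.16).

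The size of the shared movement was taken from the cells lowest and highest in Cryab. In adherent cells, 1328 cells with at most 5 Cryab UMIs were set against 1210 cells with at least 17. Hsp90aa1 had 2385 CPM in the low and 3240.0 CPM in the high cells, a log2 ratio of 0.44 (0.41 to 0.47), beside 0.38 (0.19 to 0.58) for Dnajb1, 0.30 (0.24 to 0.36) for Hspa5 and 0.28 (0.24 to 0.32) for Hspa8. Hsp90ab1 was at -0.084 (-0.105 to -0.063), and the intervals of Hsph1 (-0.06 to 0.31) and Hspb8 (-0.45 to 0.72) held 0. Of the 7 other members, 0 were over 2-fold higher in the high cells, where 0.403% of 10411 genes were, and 0 over 2-fold lower, where 0.471% were. Hspb2 had 78.8 CPM in the low and 168 CPM in the high cells, a log2 ratio of 1.09 (0.94 to 1.25).

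In neurosphere cells, 2161 cells with no Cryab UMI were set against 1088 cells with at least 2. Dnajb1 was at 0.27 (0.07 to 0.46), Hsp90aa1 at 0.14 (0.09 to 0.19) and Hsp90ab1 at 0.038 (0.014 to 0.061), whereas Hspa8 was at -0.10 (-0.14 to -0.06) and Hspa5 at -0.087 (-0.149 to -0.026). The interval of Hsph1 (-0.29 to 0.12) held 0. With cells thinned to 3000 UMIs and at least 1 Cryab UMI in the high cells, Dnajb1 turned to -0.099 (-0.32 to 0.12) and Hspa8 was at -0.0083 (-0.048 to 0.032), so neither ratio was stable. Of the 6 other members with at least 50 UMIs in these cells, 0 were over 2-fold higher, where 1.18% of 11295 genes were, and 0 over 2-fold lower, where 0.381% were. Hspb2 went from 6.39 to 32.4 CPM, a log2 ratio of 2.34 (1.93 to 2.76) on 69 and 176 UMIs. This ratio was 1.505 (1.04 to 1.98) at 3000 UMIs and 3.15 (2.71 to 3.60) with the high cells limited to those with at least 4 Cryab UMIs, above 0 in each.

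Cells were also split by their summed UMIs of 16 G2/M genes, and separately of 16 G1/S genes, both splits added after seeing the data. In neurosphere cells, the 25% of cells highest in G2/M genes (1049 cells, ties included) against the 25% lowest (1151 cells) had more Hspa8 (0.90, 0.86 to 0.94), Hsp90aa1 (0.90, 0.84 to 0.96), Hsph1 (0.85, 0.60 to 1.11), Dnajb1 (0.41, 0.18 to 0.65) and Hsp90ab1 (0.37, 0.34 to 0.40), on the log2 scale. Hspa5 was at -0.037 (-0.107 to 0.033), an interval that held 0. Cryab went the other way from the members that rose, from 448 CPM in the low to 210 CPM in the high cells (-1.09, -1.19 to -0.99). That value rested largely on few cells. The mean of 2.24 Cryab UMIs per cell in the low and 1.05 in the high cells became 1.40 and 1.01 without the 1% of cells highest in Cryab, and 50.04% against 42.8% of cells had a Cryab UMI. The G1/S split gave -1.34 (-1.45 to -1.24) for Cryab, and again rested largely on few cells, since means of 2.42 and 0.953 UMIs became 1.45 and 0.937 without that 1%, and 52.8% against 42.5% of cells had a Cryab UMI. The same split gave 0.90 (0.66 to 1.14) for Hsph1, 0.85 (0.79 to 0.91) for Hsp90aa1 and 0.83 (0.79 to 0.88) for Hspa8. Dnajb1 was at 0.52 (0.29 to 0.75) and Hsp90ab1 at 0.28 (0.25 to 0.31). Hspa5 lay on the side of Cryab, at -0.25 (-0.32 to -0.18).

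In adherent cells the G2/M split was smaller for most members. Cryab was at -0.47 (-0.50 to -0.44), with medians of 10 and 8 UMIs per cell in low and high cells, Hspa5 at -0.50 (-0.56 to -0.43), Dnajb1 at 0.50 (0.30 to 0.70), and Hspa8 and Hsp90aa1 both at 0.28. Hsph1 was at 0.32 (0.12 to 0.52) and Hsp90ab1 at -0.088 (-0.110 to -0.066). The G1/S split left Cryab at 0.016 (-0.013 to 0.045). The difference between the cultures in these splits was not tested.

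Depth and mitochondrial share moved with some members and hardly with Cryab. In neurosphere cells, rho with UMIs per cell was 0.44 for Hsp90aa1, 0.42 for Hsp90ab1 and 0.28 for Hspa8, and rho with the mitochondrial share was -0.30, -0.30 and -0.25. For Cryab these values were 0.052 and 0.073 in neurosphere and 0.024 and -0.038 in adherent cells. With the summed dissociation genes, Cryab had -0.059 in adherent and 0.025 in neurosphere cells, and Hspa8 -0.22 in neurosphere cells. The part of depth, mitochondrial share and dissociation in the relations among members was not tested.

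**Figure D4:**
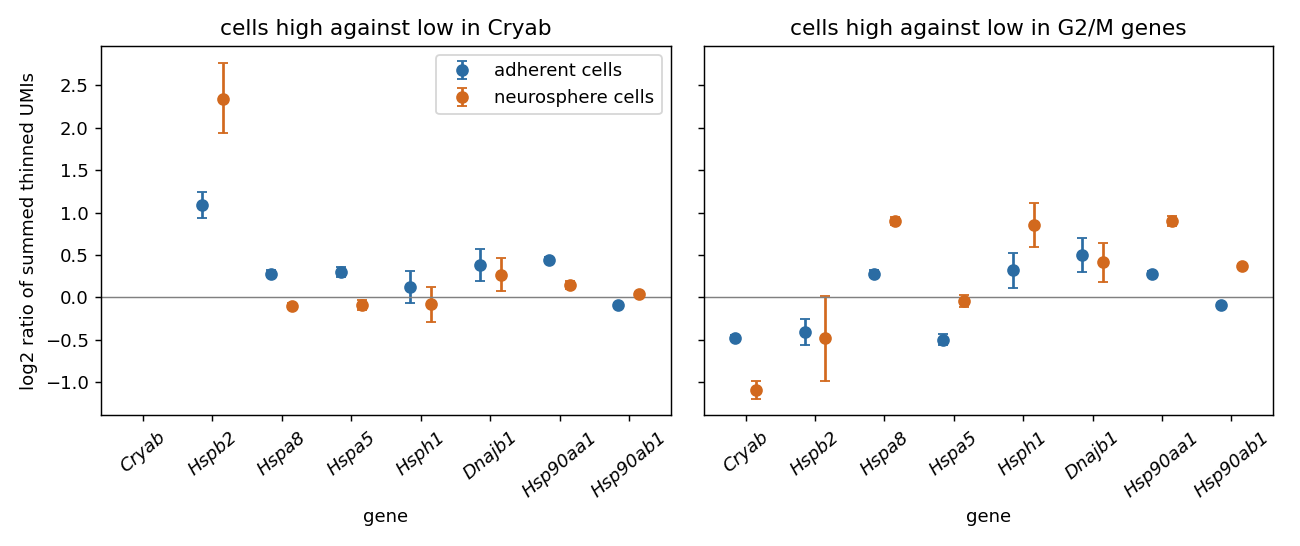
Log2 ratio of summed thinned UMIs, with 95% counting intervals, in cells high against cells low in Cryab (left) and in G2/M genes (right), for adherent and neurosphere cells of 1 library each. On the left Hspb2 alone exceeds 1. On the right Cryab, Hspb2 and Hspa5 lie below 0 in both cultures, but the neurosphere intervals of Hspb2 and Hspa5 hold 0. Hspa8, Hsp90aa1, Hsph1 and Dnajb1 lie above 0 in both cultures.

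Clusters of cells were made within each library after the heat shock genes were removed from the variable genes, so that their own values did not define them, and the 10 clusters of each library were left unnamed. In adherent cells, Cryab lay between 1126 CPM in cluster 9 and 5115 CPM in cluster 6, which was led by Tex14. Cluster 9 held 58 cells with a median of 2732.5 UMIs and 10.5% mitochondrial UMIs. Without it, the highest cluster was 2.54-fold above the lowest, against 4.54-fold with it. At least 97.2% of thinned cells had a Cryab UMI in each of the 9 other adherent clusters, with medians between 7 and 12 UMIs, while cluster 9 kept 3 thinned cells, too few to describe.

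In neurosphere cells, Cryab was concentrated. Cluster 3, led by Nppb, Chit1, Cyp4f18 and Spp1, held 10.5% of the cells and 37.2% of the Cryab UMIs, at 1599 CPM, 9.79-fold above the 163 CPM of cluster 1. Clusters 7 (led by Wnt7b and Igf1) and 9 (led by Cxcl2 and Ccl2) followed at 708 and 648 CPM, and the other 7 clusters lay between 163 and 293 CPM. The Cryab of cluster 3 was itself uneven, with a Cryab UMI in 68.9% of its thinned cells, a median of 2 UMIs and a maximum of 311. In the other clusters the median was 0 or 1 UMI. Even at 1599 CPM, neurosphere cluster 3 lay below every adherent cluster but cluster 9.

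The 6 other members counted well enough per cluster, which leaves out Hspb8 and the members at 0, had their highest level outside cluster 3 in neurosphere cells. There Hsp90aa1 was highest in cluster 7 (1687 CPM) and lowest in cluster 2 (458 CPM), and had 997 CPM in cluster 3. Hspa8 was highest in cluster 4 (2434 CPM), which was led by the mitotic genes Cdc20, Psrc1 and Plk1, and had 1324 CPM in cluster 3. Hsp90ab1 ranged from 2927 to 5058 CPM. Over the 10 neurosphere clusters, rho with Cryab was 0.36 for Hsp90aa1, -0.25 for Hspa8, -0.38 for Hsp90ab1, 0.12 for Dnajb1, -0.0061 for Hsph1 and -0.055 for Hspa5. Over the 10 adherent clusters it was 0.79 for Hspb2, 0.64 for Dnajb1, 0.38 for Hspa8, -0.030 for Hsp90aa1, -0.042 for Hsp90ab1, -0.25 for Hspa5 and -0.59 for Hsph1. These values include cluster 9, with its 58 cells and 10.5% mitochondrial UMIs, and no values without it are given here. Dnajb1 and Hspb2 shared their highest (cluster 6) and lowest cluster (cluster 9) with Cryab. Cluster 9 was also the lowest for Hspa8, Hsp90aa1 and Hsp90ab1. Dnajb1 had 28.6 CPM (9.3 to 66.7) on 5 UMIs in cluster 9. It had 80.1 CPM (70.4 to 90.7) in cluster 6, close to 79.0 CPM (73.2 to 85.1) in cluster 3. The clusters share their library, and these values carry no test.

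**Figure D5:**
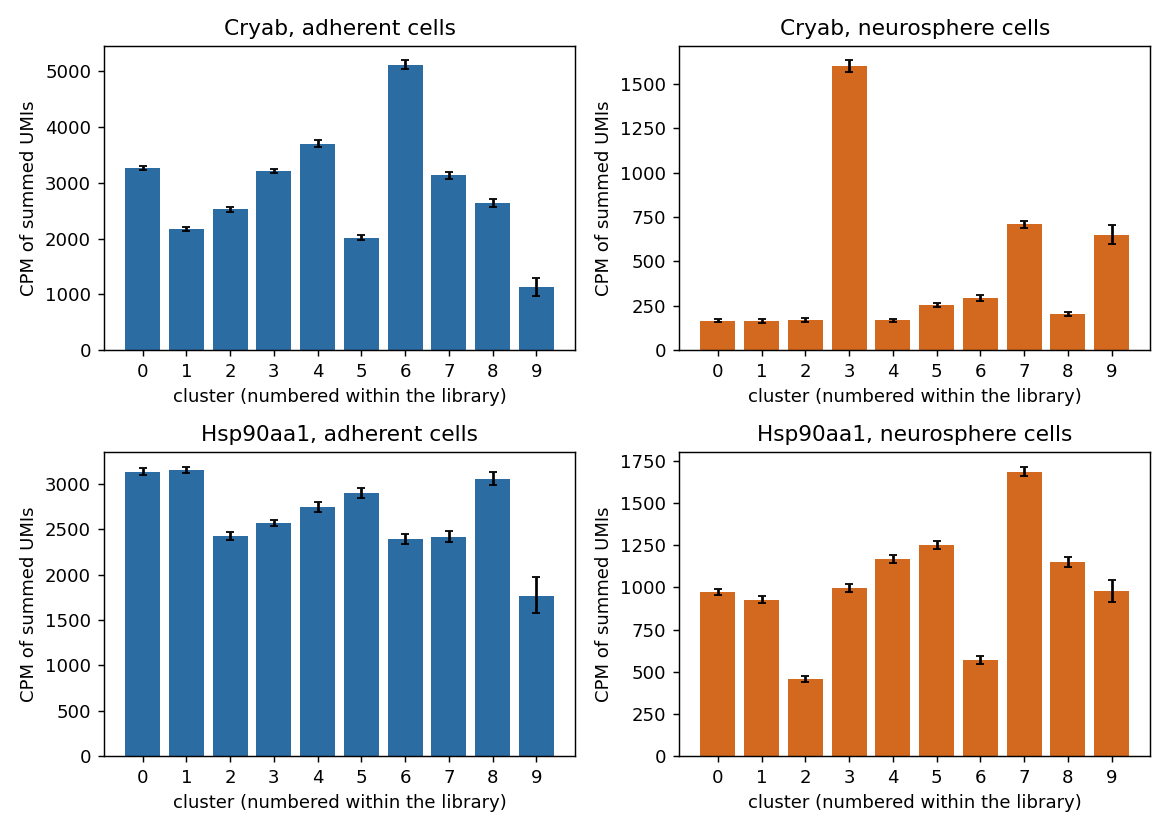
CPM of summed UMIs of Cryab (top) and Hsp90aa1 (bottom) in the 10 clusters of adherent (left) and of neurosphere cells (right), with 95% counting intervals and each y axis from 0 on its own scale. Cryab stands out in neurosphere cluster 3 at 1599 CPM, while Hsp90aa1 is highest in neurosphere cluster 7 at 1687 CPM.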

How the data were processed

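The authors deposited raw UMI counts per gene and cell for 1 adherent and 1 neurosphere library (10x 3′ chemistry), without normalization. Cell Ranger 7.0.1 and mm10 are named in the submitters' processing notes. The settings for introns and strand are not given in the sources used here.

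The 13 mitochondrial and 101 ribosomal genes were removed, then cells with fewer than 1000 UMIs or fewer than 1250 (adherent) or 2250 (neurosphere) genes. This kept 5051 of 5764 and 4276 of 4951 cells. No doublet caller was run, and cells over the 95th percentile of UMIs were left out as an alternative. CPM is per 1000000 UMIs on the genes left, with exact Poisson intervals. Log2 ratios carry exact conditional intervals, and shares exact binomial (Clopper-Pearson) ones. A count of 0 was given a floor of 3 counts, and called means over 2-fold among genes with at least 50 UMIs. With 1 library per culture no test was run.

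Cells were thinned to 5000 UMIs (alternative 3000). Clusters came from Seurat 5.3.0 in R 4.3.3 (2000 variable genes, 17 and 18 PCs, resolution 1.0), and TMM, an alternative scaling, from edgeR 4.0.16. The rest used Python 3.11.15, numpy 2.4.6, scipy 1.17.1, pandas 2.3.3 and matplotlib 3.10.9. The intervals, correlations and thinning were checked on simulated data. Positions and transcripts came from GENCODE on GRCm38 (32158 of 32285 identifiers matched).

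The members and gene lists were chosen with earlier results of these data known. Named genes are the members, Hspa1a, Hspb2, the 2 highest and 2 lowest of each list with at least 100 UMIs, and the 10 genes highest and 5 lowest in correlation with Cryab. Neighbouring genes, defining markers and leading genes of clusters were named after their values were seen. Other alternatives covered the cell filter, its order, the total, the gene span trend, the mean of cell CPM, Pearson correlation and the clustering.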

Additional observations from a re-analysis of the deposited data

How the results depend on the processing

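Between the cultures, 3 members were over 2-fold lower under each alternative run. The log2 fold change of Cryab (-2.94) moved to -3.11 without cells over the 95th percentile of UMIs, -2.72 with mitochondrial and ribosomal genes in the total, -3.16 with TMM scaling, -3.19 as the mean of each cell's CPM and -2.78 with the gene span trend removed. It was -3.40 without the 1% of cells highest in Cryab, chosen after seeing the data. TMM scaling shifted all log2 fold changes by -0.22, and mitochondrial and ribosomal genes in the total by 0.22, with Hspa5 the only member to change sign. Of the 12 gene lists without the markers, 6 had a median below 0, against 7 with TMM scaling and 4 with mitochondrial and ribosomal genes in the total. The share of adherent cells with a Cryab UMI was 98.7% without thinning and 94.7% at 3000 UMIs, and that of neurosphere cells 68.9% and 36.9%. Leaving out clusters under 100 cells, also chosen later, gave a highest over lowest adherent cluster of 2.54. The median correlation of Cryab with the other 6 ranked members stayed between 0.033 and 0.087 in adherent cells and between -0.0091 and 0.022 in neurosphere cells, where its sign was not stable. No paired analysis was possible because each culture has 1 library and no result comes from a test. Hspb8, at 344 and 97 UMIs, was the least deeply counted of the 8 members compared, and Hspb1 and Hspa1b, at 0 UMIs, could not be compared.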
